A study of Canis lupus familiaris with 6 samples.

Results

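Solute carriers (SLC genes) encode the membrane transporters that move nutrients, ions, metals, vitamins and metabolites across the plasma membrane and the membranes of organelles. The genes described here were those of the deposited table whose name starts with SLC and a digit, less the mitochondrial carriers (names starting with SLC25) and the names starting with SLC4A1 (the red cell anion exchanger SLC4A1 and its neighbours by name), whose FPKM averaged 1 or more across the 6 dogs. FPKM are sequenced fragments per gene, divided by the length of the gene and by the size of the library. The rule covered 295 of the 31512 genes in the table, and 123 of these reached a mean of 1 FPKM. They were selected on their mean level over all dogs, so their presence in blood is not a finding. They belonged to 43 families, numbered by the digits after SLC.

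Whole blood of beagle dogs (Canis lupus familiaris, 1.5 years old) was taken on day 30. The control dogs (3 libraries) were fed 30 g of a snack without CPP-Se, and the CPP-Se dogs (3 libraries) were fed 30 g of a snack that held 0.03% CPP-Se, in which selenium is chelated by casein phosphopeptides. Both groups ate the same maintenance food. The labels call the 3 libraries of a group biological replicates, and each library is called a dog here. The study fed more dogs than were sequenced, and the sources used here do not say how the sequenced animals were picked or whether blood was pooled, so p-values measure only the spread between these libraries. Whole blood mixes cell types, so fewer cells of a type and less RNA per cell cannot be told apart in any difference given here.

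Immune cells use these carriers in distinct ways. Glucose enters leukocytes through the SLC2 family, and the lactate made from it leaves through the SLC16 family. Amino acid carriers of the SLC1, SLC6, SLC7 and SLC38 families feed growth and protein synthesis in activated lymphocytes, with SLC3A2 as the heavy chain that several SLC7 carriers need to reach the surface. Macrophages and neutrophils handle iron, manganese and zinc through the SLC11, SLC30, SLC39 and SLC40 families, and part of the carriers, such as SLC15A4, work on lysosomes and endosomes.

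The recovered reads on genes were 6598173 to 8067034 per dog. Hemoglobin genes (8 genes) held 36.6% of the reads in CPP-Se replicate 2 and 48.7% to 55.9% in the other dogs, and the library size that the FPKM imply was 1.65 times the reads on genes in CPP-Se replicate 2 against 0.882 to 1.05 times in the others. The listed marker genes of blood cells that the file names were all above 0 in at least 1 dog. For monocytes, 8 of 9 listed markers were tested (CD14 was not matched by name), all 8 were lower in the CPP-Se mean, 6 with an unadjusted limma p under 0.05 (beside 9.1% lower at that p over all genes tested), and their summed level was 842 to 991 FPKM in the control dogs and 404 to 468 in the CPP-Se dogs. Neutrophil markers (6 of 10 matched by name) summed to 2039 to 2760 FPKM in the control dogs and 1600 to 2086 in the CPP-Se dogs. Of these 6, 5 had a log2 fold change below 0, 3 of them with an unadjusted limma p under 0.05. The other, MMP9, was at 96.3, 68.3 and 86.1 FPKM in the control dogs and 729, 23.7 and 540 FPKM in the CPP-Se dogs. T cell markers (10 of 10) summed to 102 to 213 against 235 to 301 FPKM, B cell markers (7 of 7) to 273 to 392 against 414 to 459 FPKM, and NK and cytotoxic markers (7 of 8) to 31.1 to 49.4 against 65.9 to 99.7 FPKM. Markers of red cells, platelets, and eosinophils and basophils overlapped between the groups in their summed level. The part of these cell type differences in the SLC values was not tested.

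By limma, 0 of the 123 SLC genes passed the threshold for a differentially expressed gene (DEG), which asked for a 1.5-fold difference or more with an adjusted p under 0.05. Over all 9847 genes tested, 3 (0.0305%) were DEGs. At these thresholds the study, which used DESeq2, reported more DEGs than that. The lowest adjusted p of an SLC gene was 0.138 (limma with Benjamini-Hochberg adjustment over all genes tested). An unadjusted limma p under 0.05 was found for 24 SLC genes, 6 higher and 18 lower in the CPP-Se dogs. These are 4.88% and 14.6% of the 123, beside 6.87% higher and 9.1% lower over all genes tested. The CPP-Se dogs lay wholly above the control dogs in 14 SLC genes (11.4%, beside 10.4% of all genes tested) and wholly below them in 21 (17.1%, beside 12.6%). These counts, of the SLC genes and of all genes alike, moved with some scalings between libraries more than with others. With the FPKM of each dog brought to a common sum without the hemoglobin genes, 9 SLC genes were higher and 8 lower at an unadjusted p under 0.05, beside 9.04% and 3.89% of all genes, and with limma-voom on the recovered reads 8 were higher and 7 lower, beside 5.596% and 2.54%. The common sum and limma-voom moved the median log2 fold change of all genes tested from -0.00433 to 0.12 and 0.15. With median-of-ratios scaling the counts at that p of every transporter group described below stayed as reported, beside 7.18% higher and 8.72% lower over all genes. With a common upper quartile only the lower count of the nucleotide sugar group moved, from 2 to 3, beside 7.56% and 8.13% over all genes. The counts also moved with single dogs, as did those over all genes. The count of higher SLC genes was 3 without control replicate 3 (4.80% of all genes) or without CPP-Se replicate 1 (4.96%), 4 without control replicate 1 (4.32%) or without CPP-Se replicate 2 (6.71%), and 9 without CPP-Se replicate 3 (7.76%). The count of lower SLC genes was 12 without control replicate 1 (5.54% of all genes) or without control replicate 3 (6.65%).

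The log2 fold change, on the log2(FPKM + 1) scale, was above 0 for 57 and below 0 for 66 of the 123 genes, with a median of -0.03 and a range of -1.66 to 0.86. Most of the genes (99 of 123) lay within a 1.5-fold difference, as did 8018 of the 9847 genes tested. The summed level of the 123 genes was 1554, 1469 and 1653 FPKM in the control dogs, against 1548, 1347 and 1279 FPKM in the CPP-Se dogs, and the groups overlapped. Of the 123 genes, 10 had a mean under 1 FPKM in 1 of the groups and passed only through the other, where they were high. Among the genes described here these were SLC2A9, SLC35A3 and SLC7A11, which passed through the control dogs, and SLC16A1 and SLC38A6, which passed through the CPP-Se dogs. The median SLC gene had 67.7 reads per dog, from 5.33 to 2399, and the lowest of these levels rest on few reads.

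**Figure D1:**
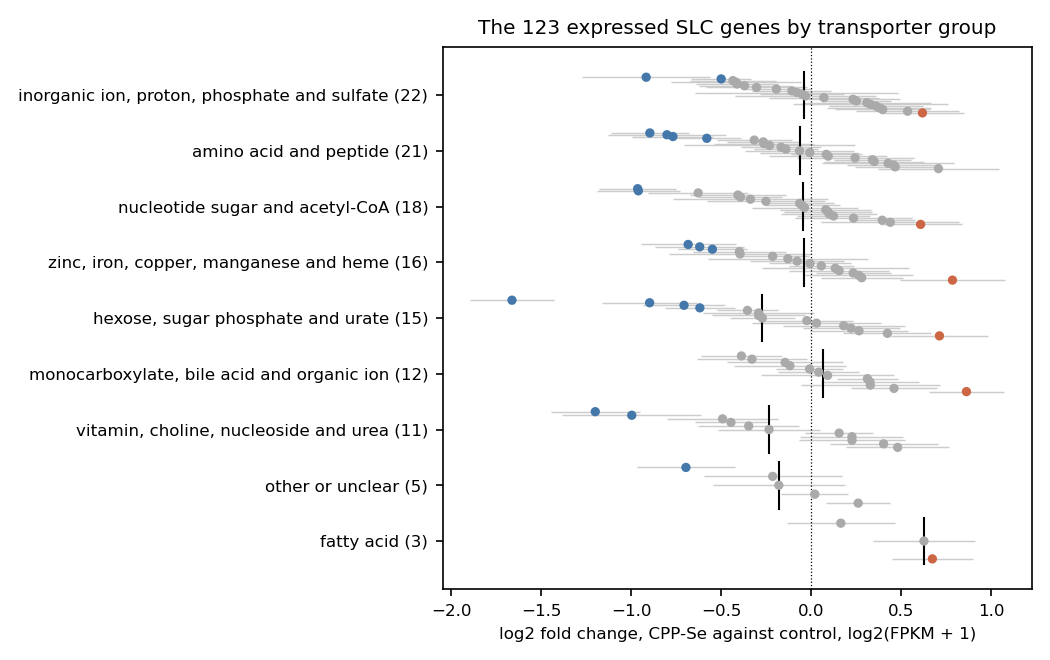
Log2 fold change (horizontal axis, CPP-Se against control dogs, log2(FPKM + 1) scale) of the 123 expressed SLC genes by transporter group, with bars of 1 standard error and a black line at each group's median. Blue points are lower and orange points higher in the CPP-Se dogs at an unadjusted limma p under 0.05, grey points the others: 18 are blue and 6 orange, from SLC2A9 at -1.66 to SLC16A5 at 0.86.

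A short list of genes carried much of the transporter message. The 12 genes of highest mean level held 47.8% of the summed level of the 123, and 7 genes had a mean of at least 50 FPKM. SLC16A3, the lactate exporter MCT4, stood at the head with 118, 103 and 115 FPKM in the control dogs and 99.99, 96.6 and 64.0 FPKM in the CPP-Se dogs. The CPP-Se dogs lay below the control dogs, with a log2 fold change of -0.39 (SE 0.23) and an adjusted p of 0.444 (limma with Benjamini-Hochberg adjustment). Without CPP-Se replicate 3, the dog at 64.0 FPKM, the log2 fold change was -0.18. SLC66A3, a member of the PQ-loop family, was next with 87.5, 77.0 and 90.6 FPKM in the control dogs and 104, 94.7 and 107 FPKM in the CPP-Se dogs. It was the only gene of these 12 with the CPP-Se dogs wholly above (log2 fold change 0.26, limma adjusted p = 0.518). SLC9A3R1, SLC44A2 and SLC12A9 followed, with control means of 86.9 ± 6.41, 58.6 ± 1.57 and 65.3 ± 5.76 FPKM (SD, n = 3) and CPP-Se means of 85.9 ± 24.9, 65.9 ± 11.4 and 49.8 ± 12.8 FPKM. In each of these the groups overlapped, and the log2 fold change of SLC12A9 was -0.41, and -0.21 without CPP-Se replicate 3. SLC9A3R1 encodes the scaffold NHERF1, SLC44A2 a choline transporter-like protein of leukocytes, and SLC12A9 an orphan of the cation-chloride cotransporter family.

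**Figure D2:**
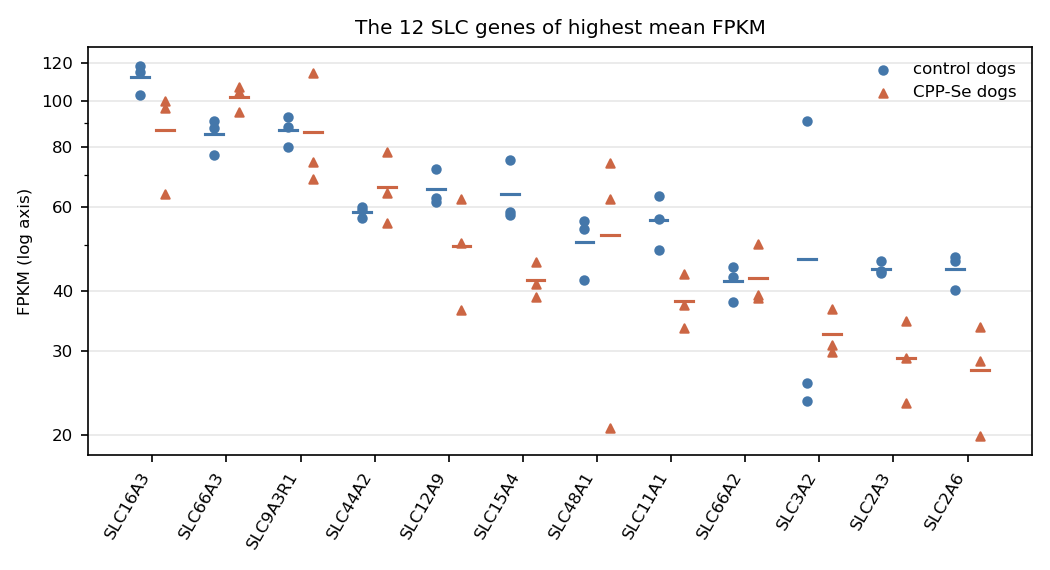
FPKM (vertical log axis) of the 12 SLC genes of highest mean level in the 3 control dogs (blue circles) and the 3 CPP-Se dogs (orange triangles), with short lines at the group means. SLC16A3, SLC15A4, SLC11A1, SLC2A3 and SLC2A6 have all 3 CPP-Se dogs below the control dogs, SLC66A3 has them above, and SLC48A1 and SLC3A2 are spread by a single dog each.

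Among the 12 genes, 4 were lower in the CPP-Se dogs at an unadjusted limma p under 0.05 and 0 were higher, beside 9.1% and 6.87% of all genes tested. With the common sum, and with limma-voom on the recovered reads, 0 of the 12 were lower and 0 higher at that p. The values of SLC48A1 and SLC3A2 hung on a single dog. SLC48A1, which carries heme out of the endolysosome, was at 56.2, 54.0 and 42.2 FPKM in the control dogs and 74.3, 20.7 and 62.5 FPKM in the CPP-Se dogs. Its log2 fold change was -0.13, and 0.43 without CPP-Se replicate 2, the dog with the low value. SLC48A1 lies wholly within HDAC7 on the opposite strand, which had 257% of its reads, and the use of strand in counting is not given in the sources used here. SLC3A2, the heavy chain CD98 of several amino acid exchangers, was at 23.55, 25.8 and 90.6 FPKM in the control dogs and 36.8, 30.9 and 29.9 FPKM in the CPP-Se dogs. Its log2 fold change was -0.23 with control replicate 3 and 0.38 without it.

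The hexose, sugar phosphate and urate group (15 genes) had the lowest median log2 fold change of the groups with more than 5 members, at -0.27. The SLC2 family of glucose and urate transporters held 6 of them. SLC2A9, the urate transporter GLUT9 (ENSCAFG00000015634, chromosome 3, 69394152 to 69595802, forward strand, Ensembl release 100), had the lowest log2 fold change of the 123 genes. It was at 3.76, 3.76 and 3.04 FPKM in the control dogs and 0.323, 0.713 and 0.270 FPKM in the CPP-Se dogs, on 62, 58 and 59 reads against 5, 23 and 4 reads. Every CPP-Se dog lay far below every control dog. As a gene that passed the filter only through the control dogs it had to differ, and the values that follow are a description. The log2 fold change was -1.66 (SE 0.24, 95% confidence interval -2.21 to -1.12), with an adjusted p of 0.138 by limma with Benjamini-Hochberg adjustment. It was between -1.80 and -1.58 when any dog was left out. The pseudocount of 1 shrinks the size of this value, and with a pseudocount of 0.1 it was -2.84. With limma-voom on the recovered reads the gene was past the DEG threshold, with a log2 fold change of -2.84 and an adjusted p of 0.0225 (limma), and over the 17 alternatives the adjusted p ran from 0.0225 to 0.455 (limma). SLC2A9, SLC46A2 and SLC6A6 are named because the study's own gene tables, made on these dogs, list them, so that their direction here is not independent evidence.

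SLC2A3 (GLUT3, the high-affinity glucose transporter of leukocytes and neurons) and SLC2A6 (GLUT6, of lysosomal membranes) were the most abundant sugar transporters. SLC2A3 was at 44.1, 46.2 and 43.6 FPKM in the control dogs and 23.4, 34.7 and 29.1 FPKM in the CPP-Se dogs. SLC2A6 was at 47.2, 46.2 and 40.1 FPKM in the control dogs and 28.6, 33.8 and 19.9 FPKM in the CPP-Se dogs. Both were without overlap, with log2 fold changes of -0.62 (SE 0.19) and -0.71 (SE 0.23). SLC2A8, the intracellular GLUT8, was at 14.9, 17.01 and 16.5 FPKM in the control dogs and 8.90, 5.25 and 11.5 FPKM in the CPP-Se dogs, with a log2 fold change of -0.90 (SE 0.26), and -0.62 without CPP-Se replicate 2. The limma adjusted p of SLC2A3, SLC2A6 and SLC2A8 was 0.209, 0.212 and 0.192. SLC2A1 (GLUT1, the widespread basal glucose transporter) did not separate the groups, at 5.45, 6.11 and 3.61 FPKM against 2.36, 6.12 and 3.805 FPKM. Of the 4 SLC2 transporters other than SLC2A9, 3 were lower at an unadjusted limma p under 0.05, beside 9.1% of all genes tested. With the common sum 1 of the 4 was lower (SLC2A8, beside 3.89% of all genes), and with limma-voom on the recovered reads 0 were (beside 2.54%). With median-of-ratios scaling 3 of the 4 were lower (beside 8.72%), as with a common upper quartile (beside 8.13%). The remaining name of the family, SLC2A4RG, encodes a regulator of transcription of the SLC2A4 gene and carries nothing. It was higher in the CPP-Se dogs, at 17.1, 15.2 and 16.8 FPKM against 42.1, 23.02 and 21.2 FPKM (log2 fold change 0.71, SE 0.27, limma adjusted p = 0.269), and 0.41 without CPP-Se replicate 1. Part of SLC2A3 overlaps FOXJ2 on the other strand, which had 14.5% of its reads.

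The other names of the SLC2 family lay under the threshold. SLC2A11 had a mean of 0.893 FPKM, SLC2A5 (the fructose transporter) 0.226 FPKM, SLC2A13 0.152 FPKM and SLC2A4 (the insulin-responsive GLUT4) 0.0383 FPKM. SLC2A2, SLC2A10 and SLC2A12 were listed at 0 in every dog, as were the renal urate exchanger SLC22A12 and the intestinal glucose cotransporter SLC5A1. Of the related urate genes, XDH, whose product makes urate, was at 11.4, 9.70 and 5.27 FPKM in the control dogs and 2.53, 4.15 and 1.14 FPKM in the CPP-Se dogs, without overlap. Its log2 fold change was -1.47 (SE 0.38, limma adjusted p = 0.171). PNP, an earlier step of purine breakdown, was at -0.05, and UOX, which degrades urate, was listed at 0 in every dog. Among the sugar phosphate exchangers of the SLC37 family (4 genes) the log2 fold changes ran from -0.36 (SLC37A3) to 0.42 (SLC37A4), and 0 had a limma p under 0.05.

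**Figure D3:**
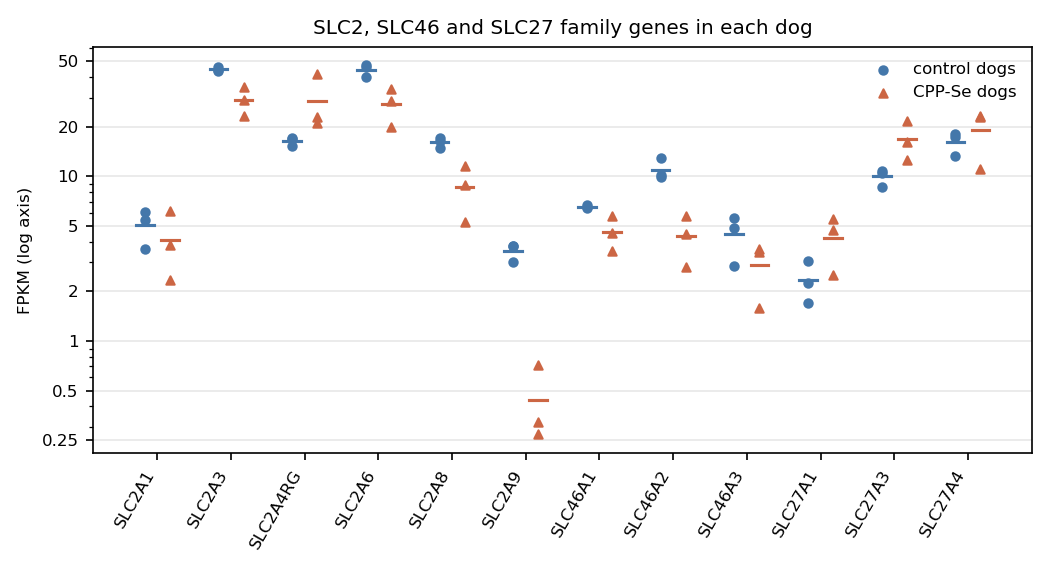
FPKM (vertical log axis) of the expressed genes of the SLC2, SLC46 and SLC27 families in the 3 control dogs (blue circles) and the 3 CPP-Se dogs (orange triangles), with short lines at the group means. SLC2A9 lies at 3.04 to 3.76 FPKM in the control dogs and at 0.270 to 0.713 FPKM in the CPP-Se dogs, SLC46A2 also separates the groups, and SLC27A3 separates them the other way.

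In the amino acid and peptide group (21 genes), 4 genes were lower at an unadjusted limma p under 0.05 and 0 were higher, beside 9.1% and 6.87% of all genes tested, and the median log2 fold change was -0.07. Of the 4, SLC7A11 passed the filter only through the control dogs. With the common sum 1 gene of the group was lower and 2 were higher, beside 3.89% and 9.04% of all genes. With median-of-ratios scaling 4 were lower and 0 higher, beside 8.72% and 7.18%. SLC15A4, the lysosomal histidine and peptide transporter needed for endosomal Toll-like receptor signalling, was the most abundant. It was at 58.7, 57.6 and 75.3 FPKM in the control dogs and 38.97, 41.4 and 46.1 FPKM in the CPP-Se dogs, without overlap (log2 fold change -0.58, SE 0.19, limma adjusted p = 0.218). SLC6A6, the taurine transporter, was at 49.9, 34.2 and 46.1 FPKM in the control dogs and 28.1, 27.4 and 19.7 FPKM in the CPP-Se dogs. The groups were apart, with a log2 fold change of -0.77 (SE 0.22, limma adjusted p = 0.1901).

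The SLC7 family of amino acid exchangers held values on both sides of 0. SLC7A7 (y+LAT1, which moves cationic amino acids out in exchange for neutral ones) was at 6.88, 7.61 and 5.58 FPKM in the control dogs and 2.45, 4.15 and 2.90 FPKM in the CPP-Se dogs, with a log2 fold change of -0.90 (SE 0.22, limma adjusted p = 0.161). Its close relative SLC7A6 (y+LAT2) went the other way, at 4.82, 5.45 and 2.99 FPKM in the control dogs against 6.52, 5.98 and 6.51 FPKM in the CPP-Se dogs. That is a log2 fold change of 0.47 (SE 0.22, limma adjusted p = 0.357), also without overlap, and 0.26 without control replicate 3. SLC7A11, the cystine-glutamate exchanger that supplies cysteine for glutathione, was at 1.79, 1.20 and 1.97 FPKM in the control dogs and 0.478, 1.15 and 0.0833 FPKM in the CPP-Se dogs. It rests on 24, 15 and 31 reads against 6, 30 and 1, so its separation of the groups (log2 fold change -0.80, SE 0.33) was thin. SLC7A11 passed the filter only through the control dogs, so its direction is a description. SLC7A5 (LAT1) and SLC7A1 (the arginine carrier CAT1) overlapped between the groups, with log2 fold changes of 0.24 and 0.08 that turned to -0.06 and -0.02 without CPP-Se replicate 2. SLC1A5, a glutamine transporter, was near equal at 24.3 ± 1.58 and 22.1 ± 3.09 FPKM (SD, n = 3). SLC6A9, a glycine transporter, had all CPP-Se dogs above the control dogs, at 1.70, 1.47 and 4.41 FPKM against 0.839, 1.37 and 0.916 FPKM. Its log2 fold change of 0.71 (SE 0.34, limma adjusted p = 0.361) was 0.35 without CPP-Se replicate 3. Of the amino acid response genes listed beside them, 4 of 6 were tested, and the transcription factor ATF4 was the only gene of these with an unadjusted limma p under 0.05 (9.1% of all genes tested were lower at that p). It was at 193, 193 and 202 FPKM in the control dogs and 124, 98.7 and 136 FPKM in the CPP-Se dogs (log2 fold change -0.72, SE 0.20, limma adjusted p = 0.183).

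The monocarboxylate, bile acid and organic ion group (12 genes) was made up for 66.2% of its summed level by SLC16A3. Here 1 gene was higher and 0 lower at an unadjusted limma p under 0.05, which is near the 6.87% higher and 9.1% lower of all genes tested. SLC16A5 (MCT6, a monocarboxylate transporter family member) had the highest log2 fold change of the 123 genes. It was at 4.38, 4.36 and 3.01 FPKM in the control dogs and 7.81, 6.61 and 9.35 FPKM in the CPP-Se dogs. All CPP-Se dogs were above all control dogs, with a log2 fold change of 0.86 (SE 0.21, limma adjusted p = 0.161), between 0.72 and 0.97 when any dog was left out. SLC16A1 (MCT1), which takes lactate in or out with a proton, was at 0.567, 0.823 and 1.03 FPKM in the control dogs and 1.47, 1.45 and 1.49 FPKM in the CPP-Se dogs (log2 fold change 0.46, SE 0.24, limma adjusted p = 0.398). SLC16A1 passed the filter only through the CPP-Se dogs, so its direction is a description. Of the 8 genes of the SLC16 family, SLC16A5 alone had an unadjusted limma p under 0.05, and 5 overlapped between the groups. The CPP-Se dogs lay wholly above in 2 and wholly below in 1, beside 10.4% and 12.6% of all genes tested. The proteins that carry these transporters to the membrane were listed beside them. EMB was at 87.4, 63.0 and 63.1 FPKM in the control dogs and 35.1, 50.2 and 44.4 FPKM in the CPP-Se dogs (log2 fold change -0.70, SE 0.22, limma adjusted p = 0.209). BSG overlapped, with a log2 fold change of -0.74 (SE 0.42).

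In the zinc, iron, copper, manganese and heme group (16 genes), 3 genes were lower and 1 higher at an unadjusted limma p under 0.05, beside 9.1% and 6.87% of all genes tested. With the common sum 0 were lower and 1 was higher, beside 3.89% and 9.04%. With median-of-ratios scaling 3 were lower and 1 higher, beside 8.72% and 7.18%. SLC11A1 (NRAMP1), which draws iron and manganese out of the phagosome of macrophages and neutrophils, was at 56.6, 48.9 and 63.3 FPKM in the control dogs and 37.4, 43.4 and 33.5 FPKM in the CPP-Se dogs. SLC40A1 (ferroportin), the iron exporter, was at 36.7, 45.6 and 28.3 FPKM in the control dogs and 27.9, 17.8 and 25.1 FPKM in the CPP-Se dogs. The 2 iron transporters did not overlap between groups, the closest pair of SLC40A1 being 28.3 and 27.9 FPKM, and their log2 fold changes were -0.55 (SE 0.19) and -0.62 (SE 0.25), with limma adjusted p of 0.245 and 0.282. The iron importer SLC11A2 (DMT1) stood below the threshold at 0.690 FPKM.

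Zinc leaves the cytosol through the SLC30 family and enters it through the SLC39 family. The CPP-Se dogs lay wholly below in 1 of 4 SLC30 genes and wholly above in 0. In the SLC39 family they lay wholly above in 1 of 7 genes and wholly below in 0. Over all genes tested, 10.4% lay wholly above and 12.6% wholly below. Over all genes tested, 4963 of 9847 had a log2 fold change below 0. In the SLC30 family 4 of 4 genes had a log2 fold change below 0, from -0.68 to -0.08. Their median was -0.31, and -0.16 without CPP-Se replicate 2, and SLC30A5 turned above 0 with the common sum, with limma-voom, and without control replicate 1 or without CPP-Se replicate 1. SLC30A1 (ZnT1), the exporter at the cell surface, was at 3.95, 2.49 and 2.57 FPKM in the control dogs and 1.82, 1.82 and 0.864 FPKM in the CPP-Se dogs (log2 fold change -0.68, SE 0.26, limma adjusted p = 0.270). In the SLC39 family 6 of 7 genes had a log2 fold change above 0 (5 to 7 over the alternatives), with a median of 0.23 and a range of -0.01 to 0.78. That median was 0.11 without control replicate 2 or without CPP-Se replicate 1, and 0.13 without control replicate 3. SLC39A13 (ZIP13, of intracellular membranes) was at 5.41, 5.05 and 3.42 FPKM in the control dogs and 13.1, 7.96 and 5.91 FPKM in the CPP-Se dogs (log2 fold change 0.78, SE 0.29, limma adjusted p = 0.266). It was 0.50 without CPP-Se replicate 1. MTF1, the zinc-sensing transcription factor that drives SLC30A1 and metallothioneins, was at 4.86, 4.48 and 4.79 FPKM in the control dogs and 1.79, 2.80 and 1.75 FPKM in the CPP-Se dogs. Of the 7 metal genes tested beside the carriers, MTF1 alone had an unadjusted limma p under 0.05 (log2 fold change -0.89, SE 0.20, limma adjusted p = 0.144), beside 9.1% of all genes tested that were lower at that p. The importer SLC39A8 was almost not detected, with a mean of 0.0121 FPKM.

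The inorganic ion, proton, phosphate and sulfate group (22 genes) held 1 higher and 2 lower genes at an unadjusted limma p under 0.05, near the 6.87% and 9.1% of all genes tested, with a median log2 fold change of -0.04. SLC41A3, of a magnesium carrier family, was lower at -0.92 (SE 0.35), but the groups overlapped at 23.7, 19.3 and 36.5 against 13.1, 8.12 and 20.6 FPKM, and it was -0.60 without CPP-Se replicate 2. SLC9A9 (NHE9), a sodium-proton exchanger of endosomes, was at 0.787, 0.962 and 1.34 FPKM in the control dogs and 2.46, 2.10 and 1.76 FPKM in the CPP-Se dogs (log2 fold change 0.62, SE 0.23, limma adjusted p = 0.269).

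In the vitamin, choline, nucleoside and urea group (11 genes) the median log2 fold change was -0.24, and 2 genes were lower at an unadjusted limma p under 0.05, beside 9.1% of all genes tested. SLC46A2 (ENSCAFG00000003063, chromosome 11, 67297597 to 67305893, reverse strand), a transporter of the folate carrier family described for bacterial muropeptides, was at 9.90, 12.9 and 10.2 FPKM in the control dogs and 5.75, 4.44 and 2.80 FPKM in the CPP-Se dogs. Its log2 fold change was -1.20 (SE 0.25, limma adjusted p = 0.138), and lay between -1.39 and -0.97 when any dog was left out. The lowest control dog was well above the highest CPP-Se dog. SLC46A1, the proton-coupled folate transporter, was at 6.54, 6.69 and 6.44 FPKM in the control dogs and 3.54, 5.77 and 4.55 FPKM in the CPP-Se dogs (log2 fold change -0.45, limma adjusted p = 0.329), also without overlap. SLC46A3 overlapped, with a log2 fold change of -0.49 (-0.22 without CPP-Se replicate 1), and so 3 of 3 genes of the family were below 0, as they were in every alternative. The choline transporter SLC44A1 was at 27.8, 20.8 and 43.1 FPKM in the control dogs and 19.4, 7.79 and 18.4 FPKM in the CPP-Se dogs. Its log2 fold change of -0.997 (SE 0.39, limma adjusted p = 0.272) was -0.60 without CPP-Se replicate 2, so a single dog set much of its size. The reduced folate carrier SLC19A1 and the nucleoside transporter SLC29A1 overlapped, with log2 fold changes of -0.24 and 0.48. With each dog left out, SLC19A1 ran from -0.47 to 0.048 (without CPP-Se replicate 3). SLC29A1 ran from 0.27 (without control replicate 3) to 0.77 (without control replicate 2).

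Nucleotide sugar carriers of the Golgi (SLC35 family, 17 genes, counted with SLC33A1) gave 2 lower genes and 1 higher at an unadjusted limma p under 0.05, near the 9.1% and 6.87% of all genes tested. Of the lower genes, SLC35A3 passed the filter only through the control dogs. SLC35A3, which carries UDP-N-acetylglucosamine, was at 2.48, 2.186 and 2.85 FPKM in the control dogs and 0.545, 0.822 and 1.06 FPKM in the CPP-Se dogs. SLC35A5, of the same subfamily, was at 6.60, 7.88 and 6.91 FPKM in the control dogs and 2.55, 4.36 and 2.78 FPKM in the CPP-Se dogs. Both had a log2 fold change of -0.96, with limma adjusted p of 0.161 and 0.143, and in both genes the groups were apart. For SLC35A3, which had to be lower to pass only through the control dogs, these values are a description. SLC35A5 had 69, 77 and 85 recovered reads in the control dogs, against 25, 89 and 26 reads in the CPP-Se dogs. CPP-Se replicate 2 thus had the most reads of the 6 dogs and an FPKM below every control dog, since its FPKM are divided by an implied library size of 1.65 times its reads on genes. SLC35C1, the GDP-fucose carrier needed for the selectin ligands of leukocytes, went the other way with 3.52, 2.00 and 2.71 FPKM against 3.75, 4.73 and 5.52 FPKM (log2 fold change 0.61, SE 0.23, limma adjusted p = 0.266). Its groups did not overlap, but by a small gap.

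The fatty acid group was the SLC27 family alone (3 genes), whose products bring fatty acids in and activate them. SLC27A3 was at 10.8, 10.5 and 8.68 FPKM in the control dogs and 21.7, 16.2 and 12.6 FPKM in the CPP-Se dogs (log2 fold change 0.67, SE 0.23, limma adjusted p = 0.231). SLC27A1 was at 2.33 ± 0.669 and 4.24 ± 1.55 FPKM (SD, n = 3), a log2 fold change of 0.62, with overlap. SLC27A4 was at 16.2 ± 2.61 and 19.1 ± 6.89 FPKM (0.16), and its sign turned to -0.01 without CPP-Se replicate 2. In the remaining group (5 genes) only SLC49A4, a lysosomal protein, had an unadjusted limma p under 0.05, with 6.40, 8.32 and 8.85 FPKM against 6.53, 4.49 and 2.86 FPKM (log2 fold change -0.70, SE 0.27, limma adjusted p = 0.273) and with overlap. It was -0.45 without CPP-Se replicate 3. Over all genes tested, 9.1% were lower and 6.87% higher at that p.

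**Figure D4:**
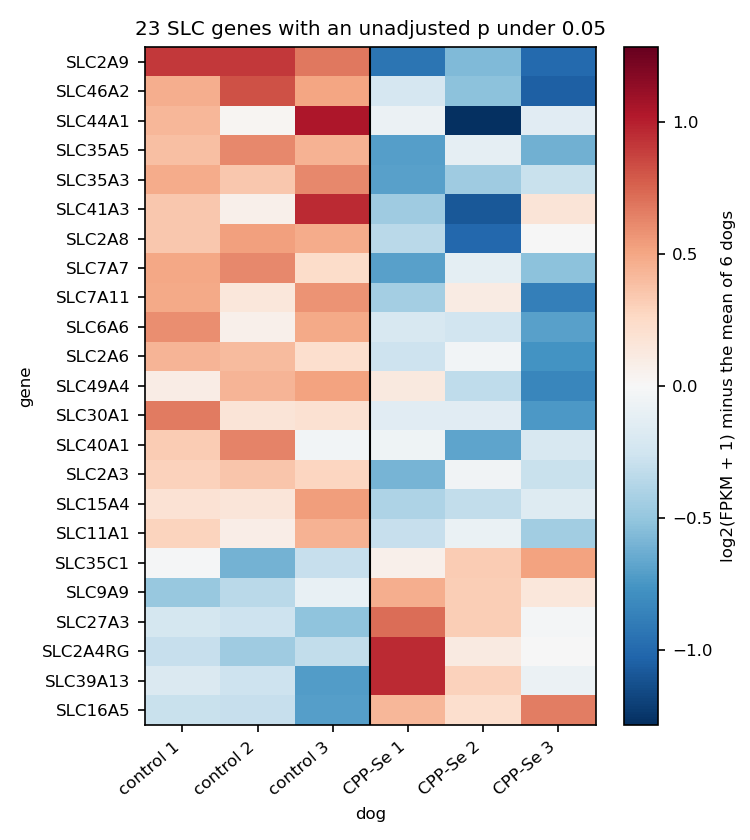
Level of 23 of the 24 SLC genes with an unadjusted limma p under 0.05 in each dog, as log2(FPKM + 1) minus the mean of the 6 dogs (colour), ordered from the lowest to the highest log2 fold change. The upper 17 genes are lower and the lower 6 higher in the CPP-Se dogs, and 1 lower gene is not reported here and not drawn. In 7 genes (SLC41A3, SLC7A11, SLC49A4, SLC40A1, SLC27A3, SLC2A4RG and SLC39A13) 1 dog lies on the other side of the 6-dog mean than its group. The genes were chosen on this contrast, so the split into 2 blocks of colour is fixed by the choice.

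Summed over each transporter group, the levels of the control and CPP-Se dogs did not overlap for 3 of the 9 groups. The hexose, sugar phosphate and urate group summed to 191, 193 and 202 FPKM in the control dogs and 169, 157 and 152 FPKM in the CPP-Se dogs. The amino acid and peptide group summed to 265, 251 and 351 FPKM against 230, 234 and 214 FPKM, and the high control value came from control replicate 3, where SLC3A2 was at 90.6 FPKM. The vitamin, choline, nucleoside and urea group summed to 150.1, 150.2 and 162 FPKM against 144, 124 and 144 FPKM. The nucleotide sugar group was closest to equal, at 91.4 ± 1.99 and 89.3 ± 8.84 FPKM (SD, n = 3). These sums are given as values, with no test, and their separation is that of the deposited FPKM alone. The common sum without hemoglobin genes divides the FPKM of CPP-Se replicate 2 by 0.770 and of the other dogs by 1.01 to 1.10. It thus raises that dog against the control dogs.

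CPP-Se replicate 2 stood apart in its library size, and without it 4 SLC genes were higher and 16 lower at an unadjusted limma p under 0.05, beside 6.71% and 8.88% of all genes tested. With both group means at 1 FPKM or more (113 genes), 6 genes were higher and 15 lower at an unadjusted limma p under 0.05, beside 6.37% and 8.92% of the 9183 genes that meet the same filter. Of the names, 4 do not encode carriers (SLC2A4RG, SLC7A6OS, SLC9A3R1 and SLC9A3R2). Without them (119 genes) 5 genes were higher (4.20%) and 18 lower (15.1%) at an unadjusted limma p under 0.05. Over all genes tested these shares were 6.87% and 9.1%.

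Transporters outside the rule were set beside these counts. Of the mitochondrial carriers (SLC25), 27 of 41 names were tested, 0 higher and 1 lower at an unadjusted limma p under 0.05 (6.87% and 9.1% over all genes tested), with a median log2 fold change of -0.07. Of the ABC transporters, 18 of 40 were tested, 1 higher and 0 lower, with a median of 0.09. Of the organic anion transporters (SLCO), 3 of 10 were tested and 0 had a limma p under 0.05. SLC4A1, the anion exchanger of red cells, was at 7.26, 15.5 and 7.98 FPKM in the control dogs and 15.7, 15.04 and 37.2 FPKM in the CPP-Se dogs, with overlap (log2 fold change 1.02, SE 0.40, limma adjusted p = 0.276).

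The threshold of 1 FPKM lay among genes of few reads. SLC38A6 and SLC7A11 were just inside it, with means of 1.06 and 1.11 FPKM, and SLC38A7 and SLC18B1 just outside, with 0.997 and 0.983 FPKM. Of the 172 genes below it, 91 were at 0 in every dog, 16 reached 1 FPKM in at least 1 dog, and 17 had a mean between 0.5 and 1 FPKM.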

How the data were processed

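Whole blood RNA of 3 control and 3 CPP-Se dogs was sequenced by the authors from oligo(dT)-enriched NEBNext Ultra libraries on an Illumina NovaSeq. The submitters' processing notes name CASAVA 2.19, fastp 0.19.7, HISAT2 2.0.5 and featureCounts 1.5.0-p3, and the study's methods name the dog genome of Ensembl release 100 and StringTie. The authors deposited FPKM per gene. The use of strand and of reads shared by overlapping genes is not given in the sources used here. The product of FPKM and gene length, in units of its lowest step within a library, gave whole reads for 100% of the values (tolerance 0.1 reads), 6598173 to 8067034 per dog.

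In R 4.3.3 with limma 3.58.1, log2(FPKM + 1) of the 9847 genes that averaged 1 FPKM or more was fitted with lmFit. The two-sided test was that of eBayes with the trend option, and p-values were adjusted over these genes by Benjamini-Hochberg. DEGs were genes that differed 1.5-fold or more with an adjusted p under 0.05. Fold changes of low genes are understated by the pseudocount. Tables were made in Python 3.11.15 with numpy 2.4.6 and pandas 2.3.3, and figures with matplotlib 3.10.9. The fit was run on simulated data with larger changes than most seen here, so that run does not measure its power in these data.

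Transporter groups follow the family number alone, so a few genes sit apart from their substrate (SLC5A6 carries vitamins). SLC symbols were matched to the RefSeq gene table for 120 of 123. Named with values were the 12 genes of highest mean, the 8 largest log2 fold changes in each direction without overlap, the highest and lowest-p gene of each group, SLC2A9, SLC46A2 and SLC6A6, and the genes beside the threshold, with the SLC2, SLC7, SLC11, SLC16, SLC39 and SLC40 families by count and range. Other genes named were chosen after their values were seen. The members and lists were chosen with earlier results of these data known. Not every gene under this rule is reported here. An exact permutation test of group sums had been planned and was not used. The labels do not pair dogs by replicate number. Alternatives were another pseudocount, filters, scalings, eBayes settings, limma-voom, a replicate block and each dog left out, and limma-voom with the library sizes the FPKM imply, which was added after seeing the data.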

Additional observations from a re-analysis of the deposited data

How the results depend on the processing

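The 34 named genes were refitted under 17 alternatives (578 values): 566 kept their direction and their side of the DEG threshold, 1 passed it (SLC2A9 with limma-voom, -2.84) and 11 turned direction. The turned values were near 0 or hung on a single dog. SLC48A1 was at 0.010 with the common sum and 0.0094 with limma-voom, and SLC9A3R1 at 0.094 and 0.099. With each dog left out, SLC27A4 ran from -0.0082 (without CPP-Se replicate 2) to 0.49, SLC3A2 from -0.57 to 0.38 (without control replicate 3), SLC48A1 from -0.47 to 0.43 (without CPP-Se replicate 2), SLC66A2 from -0.10 (without CPP-Se replicate 1; -0.05 without control replicate 2) to 0.084, and SLC9A3R1 from -0.27 to 0.089 (without CPP-Se replicate 3; 0.03 without CPP-Se replicate 2). The counts of SLC genes moved with some scalings and with single dogs. Those at an unadjusted limma p under 0.05 moved little with median-of-ratios scaling or a common upper quartile. With the common sum without hemoglobin genes, 9 were higher and 8 lower at an unadjusted limma p under 0.05 (6 and 18 as reported), and 9 lay wholly below (4.84% of all genes). With limma-voom on recovered reads, 7 were lower, 9 lay wholly above and 8 wholly below (9.73% and 2.88% of all genes), and 1 was a DEG. Over all genes, the higher and lower counts were 676 and 896 as reported, 890 and 383 with the common sum, and 551 and 250 with limma-voom, and DEGs were 3 as reported, 49 with limma-voom and 14 without CPP-Se replicate 2. The cause was not tested. When each dog was left out, the count of higher SLC genes was 3 to 9, of lower SLC genes 12 to 17, wholly above 15 to 23, wholly below 25 to 32, and of DEGs 0 in each case. The shares over all genes in those fits were 4.32% to 7.76% higher, 5.54% to 8.92% lower, 13.9% to 17.3% wholly above and 15.8% to 19.1% wholly below, since fewer dogs overlap less often. With a replicate block, 5 were higher, 15 lower and 0 were DEGs, beside 6.19% higher, 7.57% lower and 1 DEG over all genes. The deviations of same-numbered dogs from their own group means, in log2(FPKM + 1) over genes, correlated at 0.02, -0.09 and -0.04. These values showed no pairing by number. Depth limits the genes of few reads, such as SLC7A11.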
